A study of Mus musculus with 16 samples.

Results

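The libraries compared here come from kidneys of mice given vitamin B12, 4 labelled diabetic (D_B12) and 4 labelled non-diabetic (ND_B12), which make 8 of the 16 RNA-seq libraries of the study. All mice were male on the C57BL/6J background and carried Elmo1H/H, an allele that raises expression of Elmo1, which encodes an activator of the small GTPase Rac1. The diabetic mice were Elmo1H/H Ins2Akita/+ and the non-diabetic mice Elmo1H/H Ins2+/+. Ins2Akita is a dominant mutation of insulin 2 whose misfolded product kills pancreatic beta cells, so the diabetes is one of insulin lack. Both groups drank B12 at 10 mg per kg of body weight a day from 8 weeks of age, for 16 weeks by the labels, although the methods give a shorter course. The other 8 libraries, D_C and ND_C, came from mice of the same genotypes without added B12. Groups were taken from the labels, which number each library as a biological replicate.

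The labels carry a doubt that touches every result. The group means that the study tabulates are reached from these counts by other sets of libraries than the labels give. For each group the nearest set of 4 libraries was sought over 181 genes. Its median absolute log2 ratio to the tabulated mean was 0.00019 to 0.00027. The labelled sets had 0.047 (ND_C), 0.096 (ND_B12) and 0.3 (D_C and D_B12, which shared 0 libraries with their nearest sets). All 4 libraries labelled D_B12 stand in the study's grouping as untreated diabetic kidneys. ND_B12 2 and ND_B12 3 stand under their labelled group, ND_B12 1 among untreated non-diabetic kidneys and ND_B12 4 among diabetic kidneys with B12. The diabetic state of D_B12 1 to 4 and of ND_B12 1 to 3 is therefore the same under both groupings, while the B12 state of D_B12 1 to 4 and ND_B12 1 is not and ND_B12 4 differs in its diabetic state. Among the libraries labelled untreated, D_C 2 to 4 stand there as diabetic kidneys with B12, and D_C 1 and ND_C 3 as non-diabetic kidneys with B12. Group names mean the libraries so labelled, and where leaving out ND_B12 4 ends or makes a call the value without it is given. Ins2 had 0 counts over the 16 libraries, so the genotype could not be checked from expression. The dates written in the library names, whose meaning is not stated, did not overlap between the groups, with ND_B12 at day 14 to 21 and D_B12 at day 63 to 111 after the earliest, so date and diabetes cannot be told apart within a date.

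The kidney filters plasma at the glomerulus and recovers most of the filtrate in the proximal tubule, whose cells burn fatty acids in mitochondria, take up filtered proteins through megalin and cubilin, and carry B12 into the body on transcobalamin. Inside cells B12 serves methionine synthase, which turns homocysteine back into methionine, and methylmalonyl-CoA mutase, which finishes the breakdown of propionate and of several amino acids. Diabetic kidney disease is known for glomerular scarring, tubular stress, inflammation and altered fuel use.

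Counts per library ran from 65271308 to 88299908 over the 8 libraries. Defining markers of proximal tubule, distal nephron and podocyte were all present, with the 11 proximal tubule markers summing to between 1306537 and 1617939 normalized counts (counts divided by a library size factor). Skeletal muscle and adrenal markers were mostly under the count minimum of 100 over all libraries, at 8 of 10 and 5 of 8. The 9 fat cell markers summed to between 2319 and 22128 and were highest in D_B12 2. Elmo1 did not separate the groups, at 342 ± 50.2 (SD, n = 4) normalized counts in D_B12 and 331 ± 27.4 (n = 4) in ND_B12.

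The first question was which genes differed between diabetic and non-diabetic kidneys of the groups labelled B12-treated. Of 25408 genes tested, 209 (0.823%) passed an adjusted p of 0.05 in edgeR's quasi-likelihood test, the call used throughout, with 66 higher in D_B12 (0.26%) and 143 lower (0.563%). Most changes were small, with a median absolute log2 fold change of 0.54 and 34 genes at 1 or more, and 46 of the 209 had predicted or clone names. The groups did not overlap in 208 of the 209, against 2967 (11.7%) of all genes tested, in which every D_B12 library was higher in 5.1% and lower in 6.57%. The median log2 fold change of all genes was 0.0027. All 209 had the same direction in every alternative fit listed in the closing section. Their adjusted p-values lay close to the threshold, however, and the number of calls turned on single libraries. Leaving out D_B12 1, D_B12 2, D_B12 3 or ND_B12 2 left 0 calls by edgeR (smallest adjusted p 0.0785, 0.0514, 0.0565 and 0.0686, with 3331 to 3927 genes at an unadjusted p under 0.05), and leaving out ND_B12 3, D_B12 4 or ND_B12 1 left 1, 15 and 89. Each gene named below as called therefore lost its call without any 1 of those 4 libraries. The largest rises and falls and the smallest p-values were named below only where the groups did not overlap. Lack of overlap is therefore no added support for those genes. Upper-quartile scaling left 18 calls with 8 higher and 10 lower, and DESeq2 with all libraries made 1189 (4.68%), with 459 higher (1.81%) and 730 lower (2.87%). A fit that took in the label date called 29 genes, 6 of them among the 209.

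Without ND_B12 4 the number of calls grew to 265 (1.04% of genes; 58 higher and 207 lower), of which 141 were among the 209. To place each library on genes that it had not helped to choose, the fit was repeated without it. ND_B12 4 lay nearer to the D_B12 mean than to the mean of the other ND_B12 libraries in 131 of the 265 genes called without it (49.4%). On the 200 genes of smallest p in each such fit, it lay nearer to D_B12 in 51%, compared with 34% for ND_B12 1, 8% for ND_B12 2 and 17% for ND_B12 3. The D_B12 libraries lay nearer to their own group in 76.5% to 82.5% of such genes. On the 200 genes of smallest p in the full comparison, the D_C libraries lay nearer to D_B12 in 37.5% to 72.5% and the ND_C libraries in 26.5% to 46.5%.

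**Figure D1:**
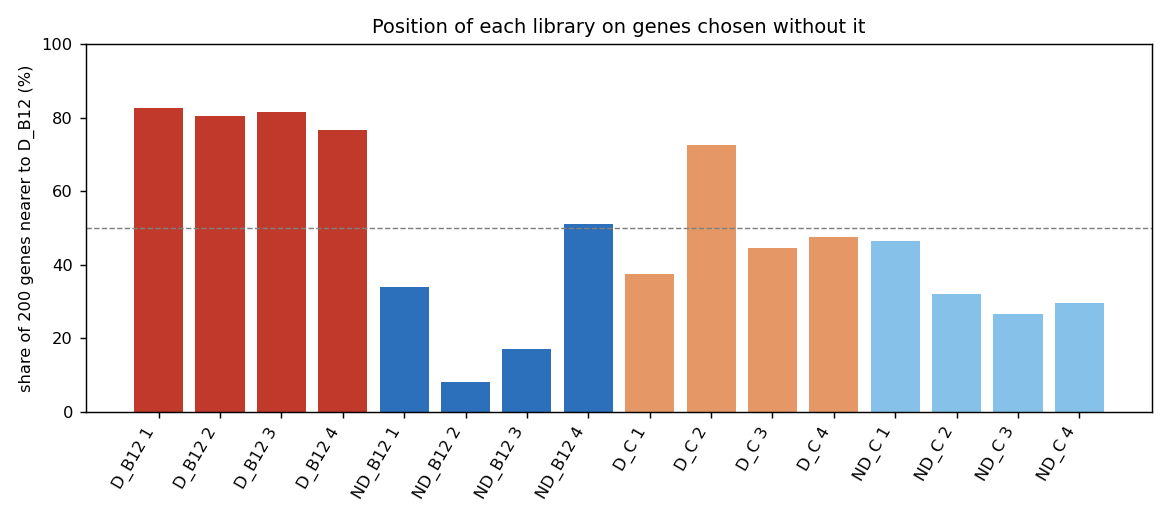
Share (%) of 200 genes in which a library lay nearer to the D_B12 mean than to the ND_B12 mean, 1 bar for each library, with a dashed line at 50%. For the 8 compared libraries the genes were chosen in a fit without that library; for the D_C and ND_C libraries they are the 200 of smallest p in the full comparison. ND_B12 4 stands at 51%, above ND_B12 1 to 3 (34%, 8% and 17%) and below D_B12 1 to 4 (76.5% to 82.5%).

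Genes that handle B12 and homocysteine were lower in the diabetic kidneys at 3 steps. Of 29 genes of B12 uptake and the methionine and folate cycles, all measured, 3 fell (Tcn2, Ahcy and Cbs) and 0 rose, with 23 lower and 6 higher in all and a median log2 fold change of -0.10. Over all genes tested, 0.563% were called lower and 0.26% higher, and 50.5% had a positive log2 fold change. Tcn2 (chr11:3866490-3882378, GRCm39), which encodes transcobalamin 2, the plasma carrier that delivers B12 to cells, had 106092, 102436, 106737 and 105080 normalized counts in ND_B12 1 to 4 and 78548, 87289, 84891 and 87702 in D_B12 1 to 4. No D_B12 library reached the lowest ND_B12 library, and ND_B12 4 stood with its own group. The log2 fold change was -0.32 ± 0.056 (SE), a 1.24-fold lower level, with an adjusted p of 0.029.

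Ahcy, which splits S-adenosylhomocysteine into homocysteine and adenosine, had 17773, 18356, 18166 and 17712 in ND_B12 and 13495, 14472, 14068 and 14342 in D_B12 (log2 fold change -0.36 ± 0.06, adjusted p = 0.0282). Cbs (chr17:31827868-31856646), which commits homocysteine to cysteine synthesis, had 12497, 10886, 10419 and 7863 in ND_B12 and 6075, 6759, 6177 and 7441 in D_B12 (-0.66 ± 0.13, adjusted p = 0.0418). Both were lower in every D_B12 library than in any ND_B12 library, and for Cbs ND_B12 4 lay close to the highest D_B12 library. Without ND_B12 4 the Cbs difference was -0.77 ± 0.12 (adjusted p = 0.0143). Ahcyl, an Ahcy-like gene, gave the same log2 fold change as Ahcy (-0.36 ± 0.057, adjusted p = 0.0215), and counting may have split reads between these similar sequences. Inmt, a methyltransferase that uses S-adenosylmethionine, averaged 22582 ± 1176 in D_B12 and 37893 ± 3090 in ND_B12 (-0.75 ± 0.12, adjusted p = 0.0215).

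The receptors and the B12-dependent enzymes themselves did not pass the test. Lrp2 (megalin), Cubn (cubilin) and Amn (their partner amnionless) had log2 fold changes of -0.26 ± 0.13, -0.21 ± 0.13 and -0.14 ± 0.11. Mtr (methionine synthase) had 0.13 ± 0.091 and Mmut (methylmalonyl-CoA mutase) -0.29 ± 0.087 (adjusted p 0.492 and 0.104), although each D_B12 library had less Mmut than any ND_B12 library. Bhmt, which remethylates homocysteine with betaine, had 422, 570, 601 and 423 in D_B12 and 138, 180, 214 and 642 in ND_B12. ND_B12 4 was the highest of all 8 libraries, and Bhmt passed, as higher in D_B12, in the 3 fits without that library (1.51 ± 0.33, adjusted p = 0.0419 by edgeR) and had 0.77 ± 0.42 (adjusted p = 0.362) with it.

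A neighbouring pathway held 7 further calls, and its list was drawn up after values were seen, so it has no test. The breakdown of leucine, isoleucine and valine ends in acetyl-CoA, acetoacetate and propionyl-CoA, and the last is carried by propionyl-CoA carboxylase and methylmalonyl-CoA epimerase to the B12-dependent mutase. All 23 genes set down for this pathway had a negative log2 fold change (-0.56 to -0.05, median -0.26), 17 of them at an unadjusted p under 0.05, a level that 9.2% of all genes reached in that direction. As the list was made with values in view, that share of all genes is no yardstick for it. Pcca and Pccb, the subunits of propionyl-CoA carboxylase, both fell. Pcca had 10984, 9986, 10230 and 10023 in ND_B12 and 7762, 8725, 8332 and 8501 in D_B12 (-0.31 ± 0.052, adjusted p = 0.0282), and Pccb averaged 15677 ± 576 in D_B12 and 19184 ± 491 in ND_B12 (-0.29 ± 0.055, adjusted p = 0.0364). Ivd and Mccc2, which act on leucine, Hibadh, which acts on valine, and Acat1 and Echs1, which act later on, made up the rest of the calls, with log2 fold changes of -0.56 ± 0.12, -0.38 ± 0.083, -0.27 ± 0.057, -0.34 ± 0.075 and -0.27 ± 0.057 (adjusted p 0.0423 to 0.0473). Without ND_B12 4 the number called was 7.

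Single genes of fuel use and transport in the proximal tubule also fell. Ppara (chr15:85618656-85687067), the nuclear receptor that drives fatty acid oxidation genes, had 7451, 9374, 9452 and 10312 normalized counts in ND_B12 and 5218, 5967, 6249 and 5993 in D_B12. Every D_B12 library lay below every ND_B12 library, and ND_B12 4 was the highest of all. The fall was 1.57-fold (-0.65 ± 0.093, adjusted p = 0.0169). Ppara was the 1 gene called of 25 fatty acid oxidation genes, 15 of which were lower and 10 higher (median -0.01, and 0.022 after upper-quartile scaling), and DESeq2 called 3, all lower. Among all genes tested, edgeR called 0.563% lower and DESeq2 2.87%. Slc27a2, a very long chain acyl-CoA synthetase of the proximal tubule, had 267768, 278439, 271272 and 246317 in ND_B12 and 195611, 197659, 187779 and 205445 in D_B12 (-0.44 ± 0.091, adjusted p = 0.0418).

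Idh2, the mitochondrial NADP-dependent isocitrate dehydrogenase, averaged 22088 ± 1111 in D_B12 and 28075 ± 449 in ND_B12 (-0.35 ± 0.052, adjusted p = 0.0215). Selenbp2, a selenium-binding protein, and Itpk1, an inositol phosphate kinase, had the smallest adjusted p of the comparison, 0.0141, together with Car9 below. Selenbp2 had 5707 to 6216 in D_B12 and 7448 to 8184 in ND_B12, and Itpk1 had 1387 to 1453 and 1943 to 2113. The close relative Selenbp1 resembles Selenbp2 in sequence, which makes its count uncertain. Slc22a8, the organic anion transporter Oat3, averaged 20562 ± 2463 in D_B12 and 33410 ± 4760 in ND_B12 (-0.70 ± 0.15, adjusted p = 0.0437, and 0.0667 without ND_B12 4), the 1 call among 28 organic ion transporters, 23 of which were lower. Slc6a20a, a proline transporter, fell to 2460 ± 180 from 3194 ± 204 (-0.38 ± 0.079), the 1 call of 18 amino acid transporters, and Gstt1, a glutathione transferase, to 3667 ± 230 from 5237 ± 345 (-0.52 ± 0.11), the 1 call of 23 such enzymes, both at an adjusted p of 0.0418. These list counts stand beside 0.563% of all genes called lower. Ass1, the argininosuccinate synthase of renal arginine synthesis, averaged 104094 ± 8073 and 144628 ± 12180 (-0.48 ± 0.10, adjusted p = 0.0458, and 0.07 without ND_B12 4).

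The proximal tubule markers moved with these genes. Of the 11, 9 were lower and Slc27a2 alone was called, with a median of -0.21, against 0.563% of all genes called lower. Their sum was 1306537 to 1372520 in D_B12 and 1499558 to 1617939 in ND_B12, without overlap. In bulk tissue, fewer cells of a type and less RNA per cell cannot be told apart, and the part of a change in tubule markers in the falls above was not tested. The 77 genes of oxidative phosphorylation differed from these, with 0 called by edgeR or DESeq2, 1 at an unadjusted p under 0.05, 40 higher and 37 lower, and log2 fold changes between -0.16 and 0.16.

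**Figure D2:**
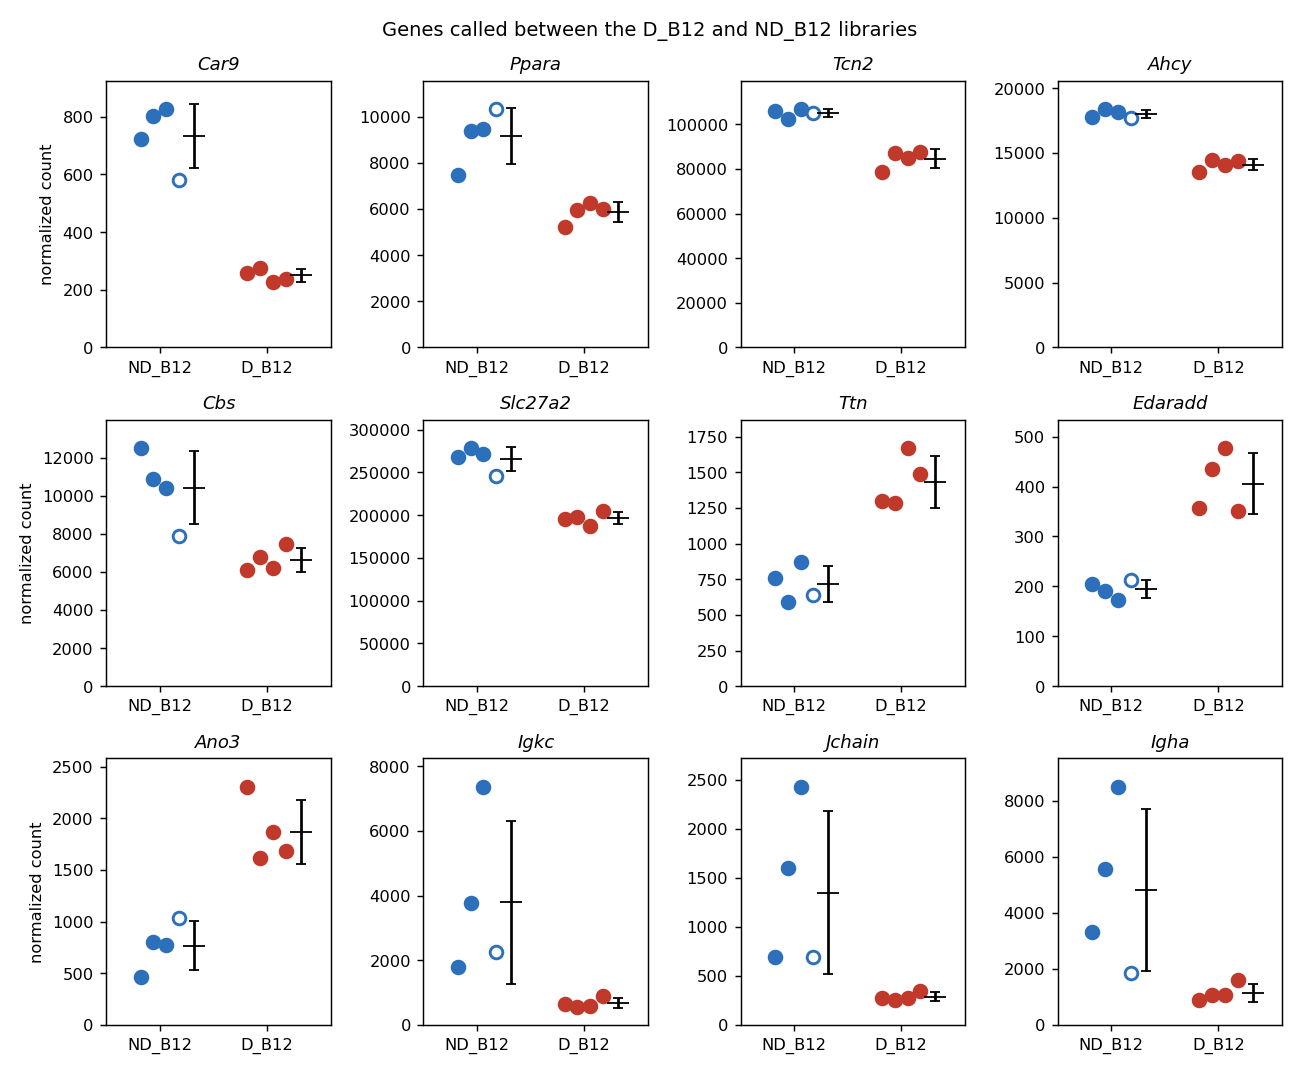
Normalized counts (y axis, from 0) of 12 genes called between the groups, 1 point for each library; bars give the mean ± SD of 4 libraries and the open circle is ND_B12 4. The groups do not overlap in any panel, and ND_B12 4 is the ND_B12 library nearest to D_B12 in Car9, Ahcy, Cbs, Slc27a2, Edaradd, Ano3, Jchain and Igha.

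Car9 (chr4:43506966-43513729) had the largest fold change of the 3 genes with the smallest adjusted p. It encodes carbonic anhydrase 9, a membrane enzyme known as a target of the hypoxia-inducible factors. Counts were 723, 802, 826 and 582 in ND_B12 and 259, 276, 227 and 236 in D_B12. The lowest ND_B12 library, ND_B12 4, was still well above the highest D_B12 library. Car9 fell 2.94-fold (-1.56 ± 0.21, adjusted p = 0.0141) and passed in 11 of 17 alternative fits. None of the other 14 hypoxia genes was called, with 7 of the 15 higher and 8 lower (median -0.05), against 0.563% of all genes called lower.

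Other large decreases were in genes of varied function. Flvcr2, a choline transporter, had 1818, 2257, 2071 and 1809 in ND_B12 and 734, 798, 788 and 1085 in D_B12 (-1.23 ± 0.19, adjusted p = 0.0215) and passed in 12 of 17 alternative fits. Ngef, a guanine nucleotide exchange factor, fell to 2384 ± 200 from 4607 ± 815 (-0.95 ± 0.15, adjusted p = 0.0215). Fam107a, an actin-associated protein, Tcf24, a bHLH protein, and Nsg2, a vesicle protein of neurons, had log2 fold changes of -0.91 ± 0.16, -0.85 ± 0.18 and -1.05 ± 0.22. In all 4 of the last-named genes ND_B12 4 was the lowest of its group. Tmem50a and Serpina1a, an alpha-1-antitrypsin, fell by less (-0.41 ± 0.064 and -0.42 ± 0.08, adjusted p 0.0215 and 0.037). Serpina1a belongs to a family of near-identical copies, so its count is uncertain.

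Ly6e, an interferon-inducible surface protein, was split by 1 library. It had 27672, 27901, 24267 and 11529 in ND_B12 and 11326, 7844, 8113 and 8069 in D_B12, so that ND_B12 4 sat beside D_B12 1. The log2 fold change was -1.37 ± 0.28 (adjusted p = 0.0418), and -1.59 ± 0.24 (adjusted p = 0.0143) without ND_B12 4. Of 36 interferon-stimulated genes 29 were lower but 0 were called by edgeR (median -0.16), with 5 at an unadjusted p under 0.05 and 3 called by DESeq2. Of all genes, 9.2% were lower at such a p and DESeq2 called 2.87% lower. Among the 36, Gbp3 alone was called without ND_B12 4 (-0.55 ± 0.13, adjusted p = 0.0483), in a fit that called 0.815% of all genes lower.

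Fewer named genes rose. Ttn (chr2:76534136-76812891), the giant titin of striated muscle, had 756, 593, 872 and 637 in ND_B12 and 1296, 1284, 1670 and 1487 in D_B12. All D_B12 libraries were above all ND_B12 libraries, a condition of the rule that named it. The rise was 2.01-fold (1.00 ± 0.14, adjusted p = 0.0169), and Ttn passed in 12 of 17 alternative fits. Of 10 skeletal muscle genes 8 were below the count minimum, and the 2 measured summed to 58.8 to 136 in D_B12 and 57.6 to 114 in ND_B12.

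Edaradd, the adaptor of the ectodysplasin receptor, had 205, 190, 172 and 213 in ND_B12 and 357, 435, 477 and 352 in D_B12 (1.05 ± 0.18, adjusted p = 0.0282). Ano3, a member of the anoctamin family of membrane proteins, had 465, 801, 771 and 1036 against 2304, 1612, 1869 and 1685 (1.28 ± 0.27, adjusted p = 0.0418). Dtx4, a ubiquitin ligase of the Notch pathway, rose to 2482 ± 157 from 1343 ± 234 (0.88 ± 0.16, adjusted p = 0.029). These 3 genes had no overlap between the groups, which the rule for naming them required, and ND_B12 4 was the highest of its own group in each.

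Grem1, a secreted inhibitor of bone morphogenetic proteins, showed the largest rise of the named genes and a wide spread. It had 5.46, 27.8, 12.4 and 61.9 in ND_B12 1 to 4 and 477, 673, 236 and 65.6 in D_B12 1 to 4, so that D_B12 4 and ND_B12 4 nearly touched. Of the 9 fat cell markers 8 were higher in D_B12 (median 0.99), with 0 called by edgeR or DESeq2 and 0 at an unadjusted p under 0.05. Their sums were 2319, 2688, 6714 and 7729 in ND_B12 1 to 4 and 7605, 22128, 3823 and 2918 in D_B12 1 to 4, the same order within D_B12 as Grem1, and their part in its rise was not tested. The log2 fold change of Grem1 was 3.72 ± 0.81 (adjusted p = 0.0458) and became 4.54 ± 0.93 (adjusted p = 0.0362) without ND_B12 4. Smaller rises were those of Dot1l, a histone methyltransferase (0.43 ± 0.076), Chka, a choline kinase (0.46 ± 0.09), and Tia1 and Ptbp2, RNA-binding proteins (0.47 ± 0.099 and 0.33 ± 0.07), at adjusted p-values of 0.029 to 0.0434. Col7a1, Omg, Far2 and Jazf1, at group means of 57.1 to 242 normalized counts, rose by 0.78 to 1.11 on the log2 scale. Without ND_B12 4 the calls of Tia1, Col7a1 and Omg were lost (adjusted p 0.0653, 0.0676 and 0.0672).

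Genes of cell division were mostly higher in D_B12, with 1 of 30 called, against 0.26% of all genes called higher. Of the 30, 28 were higher and 2 lower, with a median log2 fold change of 0.52, and 14 were higher at an unadjusted p under 0.05, which 7.79% of all genes reached in that direction. Kif23, a kinesin of the dividing cell's midzone, had 229, 175, 155 and 172 in ND_B12 and 302, 336, 356 and 477 in D_B12. Its groups did not overlap (1.00 ± 0.23, adjusted p = 0.0499), but the call was lost without ND_B12 4 (0.98 ± 0.25, adjusted p = 0.074), and the log2 fold change was 0.13 (adjusted p = 0.926) with the label date as a covariate. Cdk1, the kinase that starts mitosis, had 55.7, 26.8, 44.8 and 60 against 123, 118, 80.9 and 114 (1.21 ± 0.28, adjusted p = 0.0535) and passed without ND_B12 4 (1.36 ± 0.31, adjusted p = 0.0482). Gtse1, a microtubule protein of dividing cells that is no member of that list, rose to 118 ± 20 from 51 ± 11 (1.20 ± 0.26, adjusted p = 0.0442).

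Promoters of some cell division genes hold the inverted CCAAT octamer CTGATTGG. It is shown here for Cdk1 and Kif23, in capitals within bases upstream of the transcription start (RefSeq, GRCm38.p6, sense strand of each gene).
Cdk1: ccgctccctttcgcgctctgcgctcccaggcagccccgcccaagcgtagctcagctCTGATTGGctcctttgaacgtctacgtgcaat
Kif23: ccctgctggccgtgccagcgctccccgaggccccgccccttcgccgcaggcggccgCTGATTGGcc
The Cdk1 stretch is chr10:69352964-69353051 and the Kif23 stretch chr9:61946800-61946865, both on the minus strand. Searched on both strands of the 250 bases before the start, the octamer was in 6 of the 25 list members with a RefSeq promoter (24%) and in 1198 of all 27025 promoters by symbol (4.43%). A match is a description of the letters.

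Genes induced by p53, the stress-activated brake on division, were higher beside them. Of 21 tested, 16 were higher and 5 lower (median 0.45). At an unadjusted p under 0.05, 11 were higher, a level that 7.79% of all genes reached in that direction. Aen, a nuclease induced in p53-driven cell death, was the 1 call, with 927, 844, 793 and 1243 in ND_B12 and 1926, 1878, 1388 and 1424 in D_B12 (0.79 ± 0.16, adjusted p = 0.0418). In that fit 0.26% of all genes were called higher. Without ND_B12 4 the calls grew to 6, all higher, against 0.228% of all genes called higher in that fit. Cdkn1a, the cell cycle inhibitor p21, had 606, 324, 254 and 987 in ND_B12 and 1791, 1946, 2294 and 1337 in D_B12. The groups did not overlap and ND_B12 4 was the highest of its group. The difference was 1.76 ± 0.45 (adjusted p = 0.0703) with that library and 2.22 ± 0.45 (adjusted p = 0.0362) without it.

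Eda2r, a receptor of ectodysplasin A2, had 71, 62.5, 70.9 and 220 in ND_B12 and 292, 303, 251 and 305 in D_B12. Here ND_B12 4 stood far above the other 3 libraries of its group (mean 68.1) and still below D_B12. The difference went from 1.43 ± 0.38 (adjusted p = 0.082) to 2.08 ± 0.31 (adjusted p = 0.0143) without it. Phlda3, an inhibitor of Akt signalling, went from 0.89 ± 0.20 (adjusted p = 0.0526) to 1.10 ± 0.20 (adjusted p = 0.0222), and Tnfrsf10b, a death receptor, and Zmat3, an RNA-binding protein, were the other calls without ND_B12 4 (0.86 ± 0.19 and 0.88 ± 0.18).

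The lowest median of any list was that of genes of antibody-making cells. All 17 B and plasma cell genes were lower (median -1.39), and 3 were called, against 0.563% of all genes called lower. Igkc, the constant region of the kappa light chain, had 1786, 3781, 7359 and 2247 in ND_B12 and 643, 540, 593 and 888 in D_B12. The D_B12 libraries were low and alike, whereas the ND_B12 libraries spread over a wide range above them. Igkc fell 5.71-fold (-2.51 ± 0.53, adjusted p = 0.0427). Igha, the heavy chain of IgA, had 3315, 5565, 8486 and 1847 against 876, 1056, 1051 and 1609 (-2.07 ± 0.45, adjusted p = 0.0458). Jchain, which joins IgA into dimers, had 690, 1597, 2429 and 689 against 272, 252, 278 and 351 (-2.23 ± 0.47, adjusted p = 0.0423).

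Over the whole table, 125 of 128 immunoglobulin genes were lower, 81 of them at an unadjusted p under 0.05, and 6 were called, all lower (median -2.66). Of all genes, 9.2% were lower at such a p and 0.563% were called lower. The variable segments Igkv1-117 and Igkv1-110 were among the 6 called (-3.07 ± 0.64 and -2.55 ± 0.52, both at an adjusted p of 0.0418). Variable gene segments are alike in sequence, so counts of single segments are uncertain. Summed over the 17 genes, the level was 6510, 13577, 24389 and 7693 in ND_B12 1 to 4 and 2334 to 3467 in D_B12. T and NK cell genes were lower in 11 of 15 (median -0.40), with 0 called by edgeR or DESeq2 and 2 at an unadjusted p under 0.05.

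MHC class II genes, which present antigen on macrophages, dendritic cells and B cells, were lower throughout. All 7 had an unadjusted p under 0.05 and the groups did not overlap in 6, but 0 were called by edgeR with ND_B12 4 in the fit (median -0.62), against 5 by DESeq2. Of all genes, 9.2% were lower at such a p, 6.57% had every D_B12 library lower, and DESeq2 called 2.87% lower. H2-Aa, the alpha chain of I-A, had 5434, 5228, 5194 and 3518 in ND_B12 and 2921, 3123, 3497 and 3043 in D_B12, so ND_B12 4 lay just above the highest D_B12 library. The log2 fold change was -0.62 ± 0.15 (adjusted p = 0.0602), and -0.75 ± 0.14 (adjusted p = 0.0235) without ND_B12 4. H2-Ab1, H2-Eb1 and Cd74, the invariant chain, were called too without it (-0.79 ± 0.17, -0.73 ± 0.15 and -0.74 ± 0.15, adjusted p 0.0375, 0.0362 and 0.0362). That fit called 0.815% of all genes lower. In GENCODE vM39 the spans of H2-Aa (chr17:34493404-34506798) and H2-Eb1 (chr17:34504236-34535648) overlap on opposite strands, and the strand setting of the counting is not given in the sources used here.

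The promoters of class II genes are known for the Y box, which is the same inverted CCAAT octamer. It is shown in capitals for both genes with a match, upstream of the start.
H2-Aa: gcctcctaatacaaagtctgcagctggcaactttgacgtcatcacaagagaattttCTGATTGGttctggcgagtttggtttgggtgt
H2-Eb1: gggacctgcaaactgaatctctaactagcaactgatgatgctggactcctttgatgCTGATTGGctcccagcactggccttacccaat
These are chr17:34287843-34287930 on the minus strand and chr17:34305749-34305836 on the plus strand of GRCm38.p6. The octamer was in 2 of the 4 class II genes with a RefSeq promoter, against the 4.43% of all promoters.

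Macrophage and myeloid genes were lower in 18 of 20 (median -0.28), with 0 called by edgeR, 6 at an unadjusted p under 0.05 and 3 called by DESeq2. Of all genes, 9.2% were lower at such a p and DESeq2 called 2.87% lower. Without ND_B12 4, Tyrobp, C1qa and Csf1r were called, all lower (-0.62 ± 0.14, -0.72 ± 0.15 and -0.53 ± 0.11), in a fit that called 0.815% of all genes lower. The summed level of the 20 genes was 13002, 12047, 11698 and 9343 in ND_B12 1 to 4 and 8791 to 9894 in D_B12, so only ND_B12 4 fell within the D_B12 range. Cybb, the catalytic subunit of the phagocyte NADPH oxidase, repeated that pattern, with 916, 927, 936 and 615 against 508, 473, 588 and 538 (-0.82 ± 0.16, adjusted p = 0.0308, without ND_B12 4, and 0.0602 with it). Irgm1, an interferon-induced GTPase of immune defence named after its values were seen, fell with all libraries in the fit (-0.43 ± 0.075, adjusted p = 0.029). Whether fewer immune cells or less RNA in each gave these values was not tested.

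**Figure D3:**
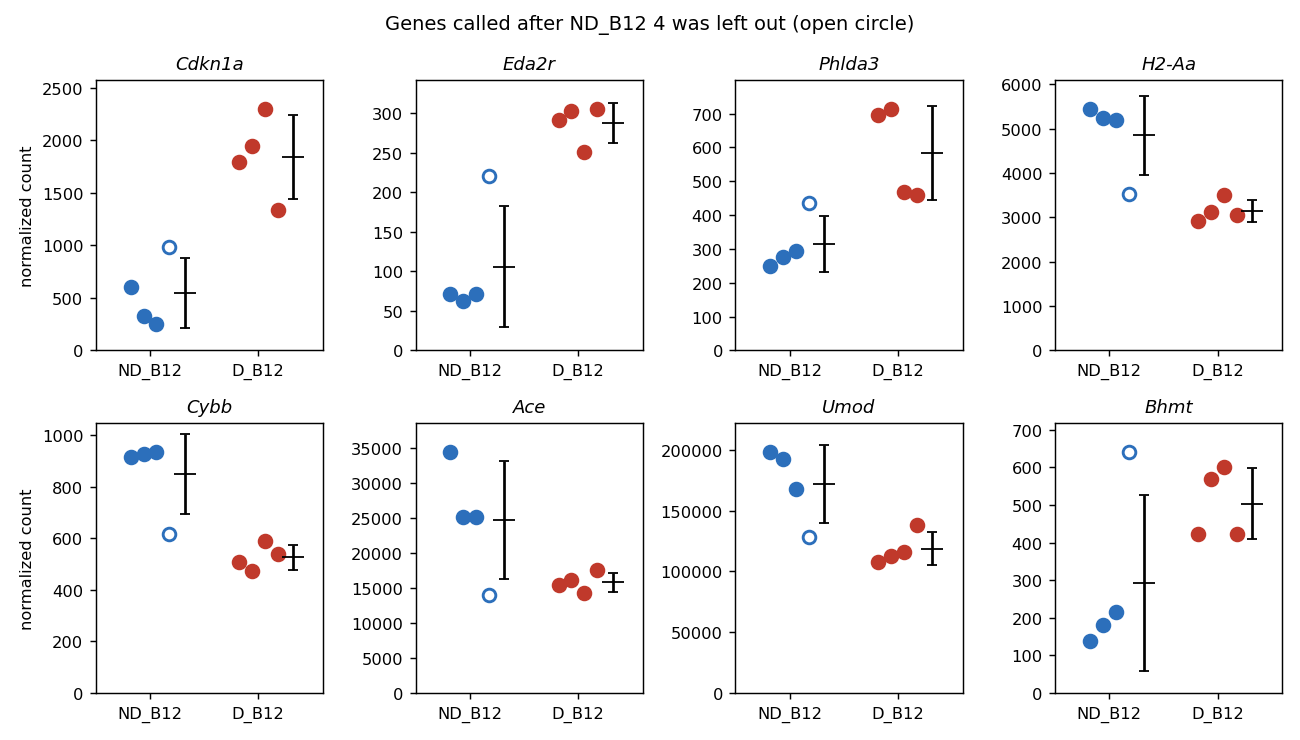
Normalized counts (y axis, from 0) of 8 genes that edgeR called without ND_B12 4 and not with it, 1 point for each library; bars give the mean ± SD of all 4 libraries of a group. ND_B12 4 (open circle) lies beside, within or beyond the D_B12 libraries in H2-Aa, Cybb, Phlda3, Ace, Umod and Bhmt and between the other ND_B12 libraries and D_B12 in Cdkn1a and Eda2r. Its place is in part set by the choice of genes.

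Further genes passed edgeR's test without ND_B12 4 and not with it. Ace, the angiotensin-converting enzyme, had 34418, 25149, 25145 and 13947 in ND_B12 and 15339, 16096, 14254 and 17505 in D_B12. ND_B12 4 was the lowest of the 8, and the difference went from -0.64 ± 0.18 (adjusted p = 0.0915) to -0.84 ± 0.12 (adjusted p = 0.0143) without it. Umod (uromodulin) and Egf, products of the thick ascending limb and distal tubule, had -0.65 ± 0.12 and -0.55 ± 0.10 (adjusted p 0.0203 and 0.029), the 2 calls among 13 distal nephron markers, of which 6 were higher and 7 lower (median -0.0073 without ND_B12 4 and -0.028 with it). The fit without ND_B12 4 called 0.815% of all genes lower and 0.228% higher. Casr, the calcium-sensing receptor, had -0.69 ± 0.14 (adjusted p = 0.0323).

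The strongest such genes by rule were Ppp1r1b, Akr1c19 and Napsa, lower beside Ace, and Eda2r, Phlda3, Zim1 and Ctxnd1, higher. Ctxnd1 had 201, 251, 244 and 562 in ND_B12 and 464, 478, 564 and 531 in D_B12, and Zim1, an imprinted zinc finger gene, 200, 208, 184 and 508 against 369, 373, 614 and 581. In both, ND_B12 4 stood among the D_B12 libraries and away from the other 3 of its label. As these genes were picked for a call only without ND_B12 4, its place in them is in part set by that choice. Slc22a28, Slc22a29, Ugt1a2 and Bhlhe40 were also called without it, Ugt1a2 as higher (2.20 ± 0.50, adjusted p = 0.0481) and the others as lower. Ugt1a2 shares exons with the other Ugt1a genes, so its count is uncertain.

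**Figure D4:**
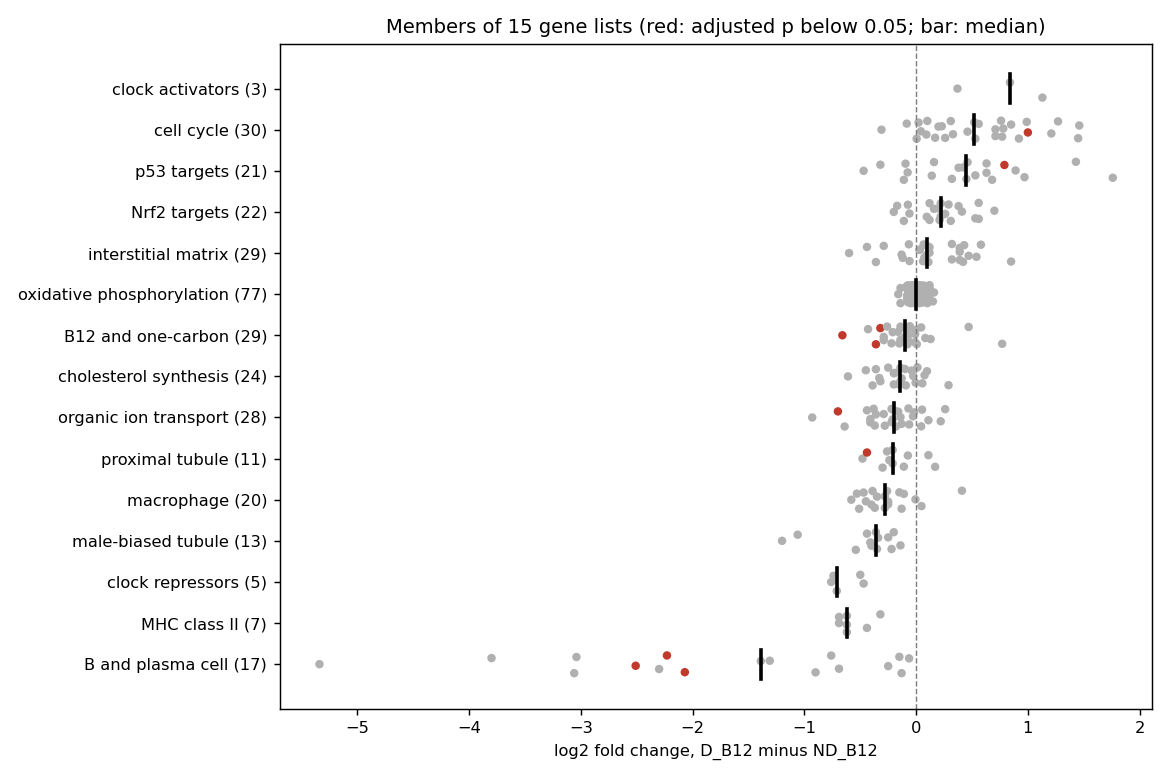
Log2 fold change (x axis, D_B12 minus ND_B12) of each member of 15 gene lists, with the number tested in brackets; red points passed an adjusted p of 0.05 and black bars are medians. B and plasma cell genes lie lowest (median -1.39), cell cycle and p53 target genes lie above 0 (medians 0.52 and 0.45), and oxidative phosphorylation genes lie within 0.16 of 0.

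Clock genes set the circadian rhythm of transcription through activators (Bmal1, Clock, Npas2) that switch on their own repressors (Per and Cry genes). All 3 activators were higher in D_B12 and all 5 repressors lower, with medians of 0.84 and -0.71. By edgeR 0 of the 8 were called, with 7 at an unadjusted p under 0.05 and 3 called by DESeq2. Of all genes, 17% had such a p and DESeq2 called 4.68%. The output genes were lower in 11 of 13 (median -0.36), with 1 called by edgeR, 2 without ND_B12 4 and 6 by DESeq2, all lower. Those fits called 0.563%, 0.815% and 2.87% of all genes lower.

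The ND_B12 libraries were not alike in their clock. Bmal1 had 1063 in ND_B12 1 and 226 to 254 in ND_B12 2 to 4, against 567 to 1017 in D_B12. Dbp, a direct target of the activators, had 2148 in ND_B12 1, 6116 to 6988 in the other 3, and 1789 to 3159 in D_B12. For both, ND_B12 1 lay with or beyond the D_B12 libraries while ND_B12 4 lay with ND_B12 2 and 3. The differences were 0.84 ± 0.45 for Bmal1 and -1.12 ± 0.35 for Dbp (adjusted p 0.357 and 0.122), and without ND_B12 1 they were 1.72 (adjusted p = 0.0469) and -1.39 (adjusted p = 0.0567). In the study's tabulated means the libraries are split in the same way. There ND_B12 1 and D_B12 1 to 4 stand as untreated kidneys and ND_B12 2 to 4 as kidneys with B12. Mice were killed over a span of hours in the day. The part of that span and of the B12 state in these values was not tested.

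Next came the question of where the contrast D_B12 minus ND_B12 differed from D_C minus ND_C. By edgeR 0 genes passed for the interaction, with 4093 (16.1%) at an unadjusted p under 0.05 and a smallest adjusted p of 0.0521. DESeq2 called 943, the fit without ND_B12 1 called 200 and the fit with the label date as a covariate 753, so the count of 0 held in only some of the fits. As the B12 state of libraries in all 4 groups and the diabetic state of ND_B12 4 and D_C 1 are in doubt, so is what this contrast compares. The contrast D_C minus ND_C called 423 genes (1.66%), and 2 with the label date as a covariate. Of the 209 genes called in D_B12 minus ND_B12, 135 had the same sign in D_C minus ND_C and 13 were called there.

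Among the genes nearest to passing, Prdm16, a transcriptional regulator, and Tgfbr3, a TGF-beta co-receptor, had opposite signs in the contrasts. They had -0.30 ± 0.085 and -0.23 ± 0.089 in D_B12 minus ND_B12 against 0.46 ± 0.085 and 0.54 ± 0.09 in D_C minus ND_C. Serpina1a had -0.42 ± 0.08 against 0.27 ± 0.079, Ttc13 0.13 ± 0.049 against -0.27 ± 0.049, and Ttn 1.00 ± 0.14 against -0.097 ± 0.14. These genes had adjusted p-values of 0.0521 to 0.0559 for the interaction, over the threshold.

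Car9 and Ppara had -1.56 ± 0.21 and -0.65 ± 0.093 in D_B12 minus ND_B12. In D_C minus ND_C they had 0.17 ± 0.21 and 0.09 ± 0.093 (interaction adjusted p 0.0521 and 0.0554). Tcn2, by contrast, had like values in both, -0.32 ± 0.056 and -0.30 ± 0.056, and so did Igkc (-2.51 ± 0.53 and -2.27 ± 0.52), Grem1 (3.72 ± 0.81 and 3.31 ± 0.83) and Cd74 (-0.62 ± 0.16 and -0.62 ± 0.16). The differences were -0.018 ± 0.08, -0.24 ± 0.72, 0.41 ± 1.1 and -0.0029 ± 0.23. For the clock, activators had medians of 0.84 in D_B12 minus ND_B12 and -0.84 in D_C minus ND_C, and repressors -0.71 and 0.57. All 8 had an unadjusted interaction p under 0.05 and 0 passed after adjustment (Cry1, at -1.57 ± 0.35, and Cry2 were nearest, both with an adjusted p of 0.0672).

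**Figure D5:**
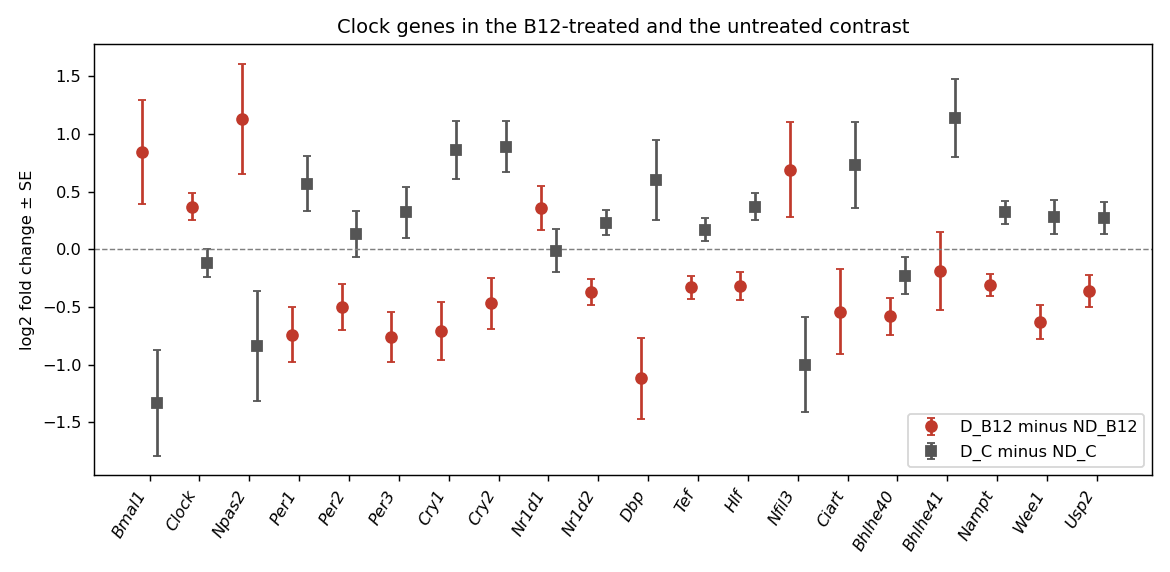
Log2 fold change ± SE (y axis) of 20 clock genes in the contrast labelled B12-treated (D_B12 minus ND_B12, red circles) and that labelled untreated (D_C minus ND_C, grey squares), 4 libraries a group. The activators Bmal1, Clock and Npas2 lie above 0 in the first and below in the second, and the Per and Cry genes the other way round; no interaction passed an adjusted p of 0.05.

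Over the 52 gene lists, 15 of 878 distinct genes were called (1.71%, against 0.823% of all genes), and 41 lists held 0 calls by edgeR. The lists without a call included glucose transport (4 of 8 higher), gluconeogenesis (2 of 8), glycolysis and fructose and polyol metabolism (12 of 20), Nrf2 targets (17 of 22, median 0.22), antioxidant enzymes (5 of 20), tubular injury genes (10 of 19), basement membrane (10 of 15), interstitial matrix (21 of 29, median 0.095), podocyte (6 of 13), endothelial (5 of 14) and heat shock genes (8 of 14). Fn1, the fibronectin gene, was the matrix gene of smallest p, at 4410 ± 633 in D_B12 and 2950 ± 431 in ND_B12 (0.58 ± 0.19, adjusted p = 0.134). Slc5a10, a sodium and mannose cotransporter, was the glucose transport gene of smallest p (0.72 ± 0.34, adjusted p = 0.298), and ND_B12 4, at 27489, stood above the 11132 to 12642 of its group. All 13 male-biased tubule genes were lower (median -0.36), with 0 called by edgeR, 3 at an unadjusted p under 0.05 and 1 called by DESeq2, and with Cyp4b1 at 275712, 263782, 260903 and 148425 in ND_B12 and 71386 to 139967 in D_B12 (-1.06 ± 0.35, adjusted p = 0.128).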

How the data were processed

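Kidney total RNA (RNeasy kit, Watchmaker Total RNA libraries, paired 50 bp reads) was aligned by the authors with STAR to GRCm39 with GENCODE annotation, and the deposited estimated counts per gene were made with StringTie and its prepDE script. Per the labels, bcl2fastq 2.20.0 made the reads. The strand setting of the counting is not given in the sources used here, and 124 of 163 named genes overlap another annotated gene. The values were whole numbers and stayed so on rounding. Genes with at least 100 counts over the 16 libraries were kept (25408 of 57186). All 16 libraries, 4 a group, entered 1 edgeR 4.0.16 quasi-likelihood fit (R 4.3.3, TMM scaling), with a two-sided contrast of D_B12 minus ND_B12, an interaction contrast, and Benjamini-Hochberg adjustment over all genes tested. Adjusted p-values in the text are from this fit unless DESeq2 1.42.0 is named. Values of the text are normalized counts by median-of-ratios size factors, errors of fold changes are SE, and those of levels SD. The fits were tested on simulated data. The comparison, the rule for named genes and the gene lists were chosen with earlier results of these data known. Named were the 12 largest rises and falls with a call, no overlap and a mean of at least 50 counts, the 5 smallest p-values each way, leading members of each list, and leading genes of the fit without ND_B12 4 and of the interaction; Inmt, Ahcyl, Ass1, Irgm1 and the amino acid breakdown list were chosen after their values were seen. Alternatives were DESeq2, upper-quartile scaling, other filters, the compared groups alone, a replicate block, the label date and leaving out each library. Same-numbered libraries did not deviate together, so the numbers do not pair the samples. Positions are from GENCODE vM39 on GRCm39 and promoters from RefSeq. Results for a few genes are not reported here.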

Additional observations from a re-analysis of the deposited data

Results flagged for a closer look

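Of 192 groups of 4 values, 15 had a highest or lowest library whose gap to the nearest other, as a share of the range, exceeded Dixon's 95% critical value. Chance gives such a gap in about 1 in 20 groups. The groups cover only part of the values of the 163 named genes. The rule for naming took in genes that edgeR called without ND_B12 4 and not with it (Eda2r, Zim1 and Ctxnd1 among them), so the number of cases with ND_B12 4 apart is in part set by that choice. ND_B12 4 was low in Nsg2 (78.3 normalized counts, others 142 to 151), Cybb (615, others 916 to 936) and Cyp4b1, a male-biased cytochrome P450 (148425, others 260903 to 275712). It was high in Eda2r (220, others 62.5 to 71), Zim1 (508, others 184 to 208), Ctxnd1 (562, others 201 to 251), Slc5a10 (27489, others 11132 to 12642) and Sdha, a succinate dehydrogenase subunit (60253, others 54281 to 55301). ND_B12 2 was high in Xbp1, a regulator of secretory cells (12678, others 9214 to 9613).

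In D_B12, D_B12 1 was high in Dot1l (3608, others 3194 to 3255), Ly6e (11326, others 7844 to 8113), Gtse1 (147, others 104 to 111) and Emcn, an endothelial sialomucin (3395, others 2722 to 2812). D_B12 3 was high in Jazf1 (227, others 157 to 166) and Slc5a10 (34016, others 23349 to 24171).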

How the results depend on the processing

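The 209 calls became 1189 with DESeq2 (459 higher, 730 lower), 18 with upper-quartile scaling (8 higher, 10 lower), 35 with no filter beyond 1 count, 29 with the label date as a covariate (6 of them among the 209) and 114 with a log2 fold change of at least 0.5 required; other filtering by expression gave 219 and the compared groups alone 191. With the replicate block they were 25 (9 higher, 16 lower; 23 among the 209); correlations of same-numbered libraries ran from -0.114 to 0.00432, and 0 of 4 were highest with their own number. Leaving out 1 library gave 0 to 265. Chosen after seeing the data, the compared groups alone without ND_B12 4 gave 640 and DESeq2 without it 1165. The interaction count of 0 became 943 with DESeq2, 147 with the replicate block, 753 with the label date (added after seeing the data) and 0 to 200 on leaving out 1 library. Genes without overlap numbered 2967, and 3562 to 4704 on leaving out 1 library. Calls among list genes went from 15 to 38 without ND_B12 4 and to 2 with upper-quartile scaling, which moved the median of all genes to 0.034 and turned the sign of 6 list medians near 0. With the label date, Kif23 (0.13), Slc22a8 (-0.10), Ly6e (-0.20), Gstt1 (-0.12), Far2 (0.24), Tcf24 (-0.24) and Ptbp2 (0.095) shrank most among the called genes named, and log2 fold changes took the other sign in Zim1 (-0.19), Scd1 (0.68), Per2 (0.29), Emcn (0.13), Lep (4.95), Nr1d1 (-0.073), Bhmt (-0.37) and Bcat1 (0.26), as did Bhlhe41 in the 3 fits without ND_B12 4 (0.15; -0.54 to 0.15 on leaving out 1 library) and Elmo1 without D_B12 2 (-0.029; -0.029 to 0.12). Without ND_B12 3 Igkv1-117 had -2.40. Counting all alternatives of single named genes, 1990 values kept direction and side of the threshold, 181 gained a call, 583 lost it and 12 turned. The causes were not tested. Depth was at least 65271308 counts per library, and genes under the count minimum were not tested.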
